A study of Mus musculus with 2 samples.

Results

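Vimentin and 7 calcium binding genes of the S100 family were followed through the cells of mouse colorectal tumours. The genes are Vim, S100a4, S100a6, S100a10, S100a11, S100a13, S100a14 and S100a16. They are 8 of the 32285 genes counted and were taken by their symbols. The set had been chosen by a rule that used measured values, namely how these genes varied over cell classes and between the libraries. Their levels were read in T cell and macrophage states, in stroma and in epithelium, all set by marker genes, and in each library. The 8 genes were left out of the genes that set the clusters. Their levels are therefore given as a description and were not tested.

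The tumours came from the AOM/DSS model, in which azoxymethane, a carcinogen, is combined with dextran sulphate sodium, an agent that induces colitis. A single droplet library was made from mice lacking STK25 throughout the body (labelled STK25 wKO) and another from wild-type mice (labelled WT), each from pooled tumours. With 1 library per genotype, nothing that differs between them could be checked in replicates. The labels give no sex, age, strain or number of animals per pool. The series description mentions sorting of cells by mCherry without saying what carried it. The deleted stretch of Stk25, the kinase gene knocked out, is not described, and its transcript was counted at 127 CPM (UMIs of a gene per 1000000 UMIs; a UMI is a tag that marks one captured transcript) in the library labelled STK25 wKO and at 118 CPM in that labelled WT. Reads from the 3′ end of a transcript cannot check a deletion elsewhere, so the libraries are called by their labels. After filtering, 13883 cells with a median of 2091 UMIs and 12270 cells with a median of 1383 UMIs were kept. All intervals are at the 95% level and cover counting error only, because UMIs of one pool say nothing of the spread between mice.

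Vimentin forms the intermediate filaments of fibroblasts, endothelium and most leukocytes, whereas simple epithelium builds its filaments from keratins such as Krt8, Krt18 and Krt19. S100 proteins are small calcium sensors that bind a partner when calcium rises and so couple it to motility, membrane repair and secretion. Vimentin and S100A4 are both widely used as markers of a mesenchymal state in carcinoma, and S100A4 is also known as fibroblast-specific protein.

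Vim (ENSMUSG00000026728) lies on chromosome 2 at 13573927 to 13582826 on the plus strand of GRCm38, the assembly behind the mm10 build of the files. The S100 genes share a stretch of chromosome 3 and the same strand. S100a13 (90514435 to 90524581), S100a14 (90526856 to 90528837), S100a16 (90537254 to 90543151), S100a4 (90603771 to 90606045) and S100a6 (90612882 to 90624181) stand close together, and S100a11 (93520488 to 93526287) neighbours S100a10 (93555080 to 93564643) further along. Promoters are shown because these neighbours differ in which cells carried their transcripts. RefSeq (GRCm38.p6) gave a start site for 6 of the 8 genes. The 250 bases before the start are printed 5′ to 3′, and capitals mark matches to a motif. The motifs searched, on both strands, were the TATA box with the letters TATAAA, the motif CCAAT, known as a site of general promoter factors, and lastly TGANTCA, the site of the factor AP-1. The windows are chr2:13574061-13574310 for Vim, chr3:90603520-90603769 for S100a4, chr3:90612644-90612893 for S100a6, chr3:93520246-93520495 for S100a11 and chr3:90540896-90541145 for the second start of S100a16.
Vim: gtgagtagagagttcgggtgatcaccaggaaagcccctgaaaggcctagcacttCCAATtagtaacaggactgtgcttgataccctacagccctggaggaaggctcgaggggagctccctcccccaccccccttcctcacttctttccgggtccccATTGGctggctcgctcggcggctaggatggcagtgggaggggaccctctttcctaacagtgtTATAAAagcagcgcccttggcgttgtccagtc
S100a4: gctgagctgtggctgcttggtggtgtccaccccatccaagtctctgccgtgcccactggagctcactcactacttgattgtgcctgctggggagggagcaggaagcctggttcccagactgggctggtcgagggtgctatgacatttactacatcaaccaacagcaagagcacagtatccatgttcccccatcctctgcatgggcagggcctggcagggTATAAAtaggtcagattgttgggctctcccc
S100a6: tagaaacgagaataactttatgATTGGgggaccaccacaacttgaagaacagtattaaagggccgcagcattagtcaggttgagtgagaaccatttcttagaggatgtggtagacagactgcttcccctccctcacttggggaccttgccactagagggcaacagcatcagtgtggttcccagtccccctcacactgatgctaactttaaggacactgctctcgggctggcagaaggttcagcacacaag
S100a11: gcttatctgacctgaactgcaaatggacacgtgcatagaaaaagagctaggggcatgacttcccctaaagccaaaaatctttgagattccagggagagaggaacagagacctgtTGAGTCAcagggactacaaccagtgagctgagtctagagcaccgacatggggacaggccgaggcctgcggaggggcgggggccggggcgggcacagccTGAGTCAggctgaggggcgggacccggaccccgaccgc
S100a16: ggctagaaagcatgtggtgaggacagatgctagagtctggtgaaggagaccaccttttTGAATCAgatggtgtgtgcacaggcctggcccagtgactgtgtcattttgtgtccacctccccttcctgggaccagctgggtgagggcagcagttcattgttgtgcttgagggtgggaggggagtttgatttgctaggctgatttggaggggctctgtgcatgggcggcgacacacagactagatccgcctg

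A TATA box stood in the windows of Vim and S100a4, beginning 32 and 31 bases before the start, and in 12.4% of the 32851 promoter windows of that length. Vim also held 2 CCAAT boxes, the one nearer the start on the other strand (ATTGG), and S100a6 held 1 on the other strand. This motif occurred in 33.8% of all windows. S100a11 held TGANTCA at 136 and at 38 bases before its start, and the second start of S100a16 held it once, against 6.75% of all windows. None of these motifs was in the window of S100a13 or of the first start of S100a16. These are matches of letters and no binding was measured.

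Clusters gave 11 classes, of which 9 held at least 50 cells in each library. In the library labelled STK25 wKO and then in that labelled WT, the counts were 5014 and 2781 epithelial-like cells, 1436 and 3918 T- or NK-like, 1612 and 238 neutrophil-like, 1075 and 310 macrophage-like, 817 and 680 fibroblast-like, 841 and 477 endothelial-like, 658 and 1603 B-like, 141 and 193 dendritic-like, and 162 and 92 pericyte- or smooth muscle-like. A further 14.8% and 15.6% of cells had few UMIs and stayed unnamed. Their summed profile was used as a gauge of free RNA, which gives transcripts of one cell type to all droplets. The gauge rests mostly on a different cluster in each library. In that labelled STK25 wKO, 1872 of 2052 unnamed cells were in a cluster led by Zg16, C1qa and Apoe, with 3 macrophage markers among its 10 leading genes. In that labelled WT, 1819 of 1915 were in a cluster led by Hist1h1b and Hist1h1e. The T- or NK-like class was held mostly by different clusters in the libraries, with 1157 of 1436 cells in a cluster led by Il17a and Ctla4 in the library labelled STK25 wKO and 2628 of 3918 in a cluster led by Skap1 and Themis in that labelled WT. The largest subcluster of this class, of 29 and 1347 cells at a median of 1003 UMIs, had no state name. Saa1, Reg3b and the epithelial markers Cldn3 and Krt18 were among its leading genes. Class levels and ratios include these cells. The libraries shared 230 cell barcodes.

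**Figure D1:**
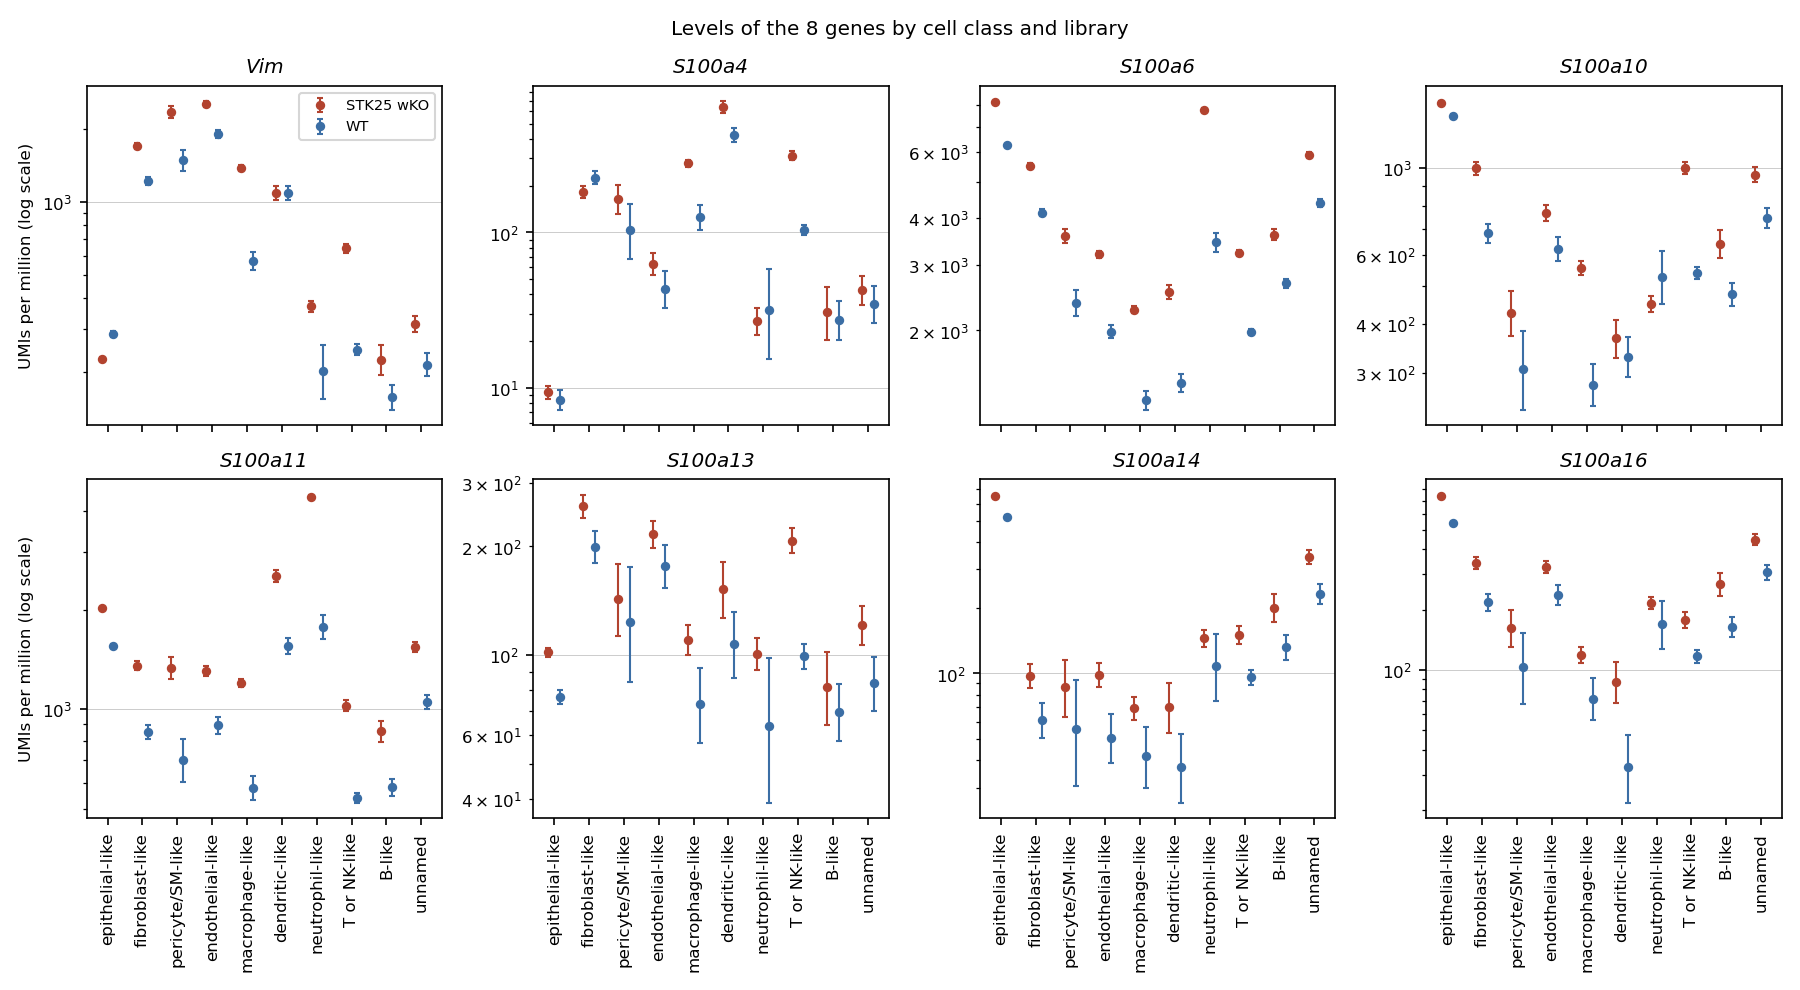
Level of each gene (CPM, log scale) in the cell classes with enough cells, STK25 wKO in red left of WT in blue, with bars for the 95% Poisson interval. Vim was highest in endothelial-like cells at 2527 and 1902 CPM, S100a4 in dendritic-like cells at 639 and 423 CPM, and S100a14 in epithelial-like cells at 652 and 523 CPM.

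Vim was highest in the stromal classes of both libraries. It reached 2527 CPM (2464 to 2590) in endothelial-like cells of the library labelled STK25 wKO and 1902 CPM (1827 to 1981) in those labelled WT. Pericyte- or smooth muscle-like cells followed at 2347 and 1480 CPM, and fibroblast-like cells at 1691 and 1219 CPM. Below them stood dendritic-like cells at 1086 and 1089 CPM and macrophage-like cells at 1377 and 570 CPM. T- or NK-like cells held 642 and 246 CPM, neutrophil-like cells 371 and 201 CPM and B-like cells 224 and 157 CPM. The order of stroma over leukocytes was therefore the same in both libraries apart from macrophage- and dendritic-like cells, which changed places. In the library labelled STK25 wKO the intervals of the endothelial-like and the pericyte- or smooth muscle-like class overlapped, and in that labelled WT they did not.

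Within the stroma, Vim varied with the vessel and fibroblast type. Lymphatic endothelial-like cells, which drain fluid and cells from tissue, had 2859 CPM in the library labelled STK25 wKO and 2411 CPM in that labelled WT, above blood endothelial-like cells at 1719 and 1412 CPM. The log2 difference of lymphatic over blood was 0.73 and 0.77, without subclusters that had no state name. Over whole clusters the gap was smaller, with 2656 and 2266 CPM in that led by Ccl21a and Mmrn1 and 2466 and 1631 CPM in that led by Fabp4 and Flt1. A subcluster led by Sele, Selp and Madcam1, adhesion molecules of venules, had 3469 and 2074 CPM over 148 and 54 cells. Another of 20 and 14 cells, led by Mgp and Gja5, genes of arteries, had the highest level among endothelial subclusters with over 10 cells in each library, at 6599 and 3727 CPM.

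Among fibroblast-like cells the subcluster led by Pi16, a marker of adventitial fibroblasts around vessels, carried most Vim among the subclusters with 20 or more cells in each library, at 3185 CPM (3036 to 3340) in the library labelled STK25 wKO and 1711 CPM (1594 to 1833) in that labelled WT. The same subcluster held S100a10, whose product binds Anxa2 at the membrane, at 1920 and 1062 CPM. Mucosal fibroblast-like cells led by Cxcl13 and Tcf21 had 1655 and 1556 CPM of Vim and 647 and 596 CPM of S100a10. A subcluster led by Cemip and Mmp13, which also held Il11 among its leading genes, had 597 and 535 CPM of Vim. Vim thus spanned a wide range among fibroblasts, with the lowest of these levels in the cells led by Cemip and Mmp13.

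S100a4 did not mark fibroblasts in particular. Dendritic-like cells had the highest level in both libraries, at 639 CPM (586 to 695) in that labelled STK25 wKO and 423 CPM (381 to 469) in that labelled WT. T- or NK-like cells followed at 311 and 104 CPM, macrophage-like cells at 278 and 125 CPM, and fibroblast-like cells at 183 and 225 CPM. Pericyte- or smooth muscle-like cells had 164 and 104 CPM and endothelial-like cells 62.7 and 43.5 CPM. Neutrophil-like cells, at 27.0 and 31.9 CPM, B-like cells, at 30.8 and 27.5 CPM, and epithelial-like cells, at 9.42 and 8.42 CPM, lay below the unnamed cells at 42.6 and 34.8 CPM. Fibroblast-like cells therefore ranked behind T- or NK-like and macrophage-like cells in the library labelled STK25 wKO and ahead of them in that labelled WT.

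In T cells both Vim and S100a4 stood higher in activated than in resting states. Resting T-like cells, marked by genes such as Lef1 and Ccr7, had 17.2 CPM of S100a4 and 121 CPM of Vim in the library labelled WT (1199 cells). Only 31 such cells, with 1 UMI of S100a4, were in the library labelled STK25 wKO. Regulatory or activated T-like cells, most of them in a subcluster led by Penk and Foxp3, had 381 CPM of S100a4 in the library labelled STK25 wKO and 140 CPM in that labelled WT. In the library labelled WT they stood above resting cells by 3.03 (2.51 to 3.58) for S100a4 and 1.52 (1.29 to 1.74) for Vim on the log2 scale.

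Gamma-delta or IL-17 T-like cells, led by Trdv4, Cd163l1 and Il17a, held 350 CPM (292 to 416) of S100a4 in the library labelled STK25 wKO and 407 CPM (319 to 511) in that labelled WT. Their intervals overlapped. Cytotoxic cells led by Xcl1 and Nkg7 had 136 and 154 CPM, again with overlapping intervals. Over the whole cluster led by Xcl1, Ccl5 and Nkg7 (189 and 173 cells) the levels were 113 and 169 CPM. The log2 ratio there was −0.58 (−1.11 to −0.067), an interval that leaves out 0. A subcluster led by Cd40lg, the gene of a helper T cell ligand, had 388 and 418 CPM. The libraries therefore differed in S100a4 in the Foxp3 subcluster, with 423 CPM (373 to 477) and 161 CPM (139 to 185). In the 3 other subclusters named here the intervals of the ratio included 0, unlike over the whole Xcl1 cluster.

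Vim followed a different course across the same states. It was 860 and 375 CPM in the Foxp3 subcluster of the libraries labelled STK25 wKO and WT, 494 and 243 CPM in cytotoxic cells, and 771 and 552 CPM in gamma-delta or IL-17 cells. In the Cd40lg subcluster the levels were 696 and 678 CPM, within each other's intervals. S100a10, S100a11 and S100a13 also stood higher in regulatory or activated than in resting T-like cells of the library labelled WT, by 0.99, 0.53 and 0.39 on the log2 scale. S100a14 and S100a16 did not, at −0.04 and −0.05, with intervals that included 0.

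**Figure D2:**
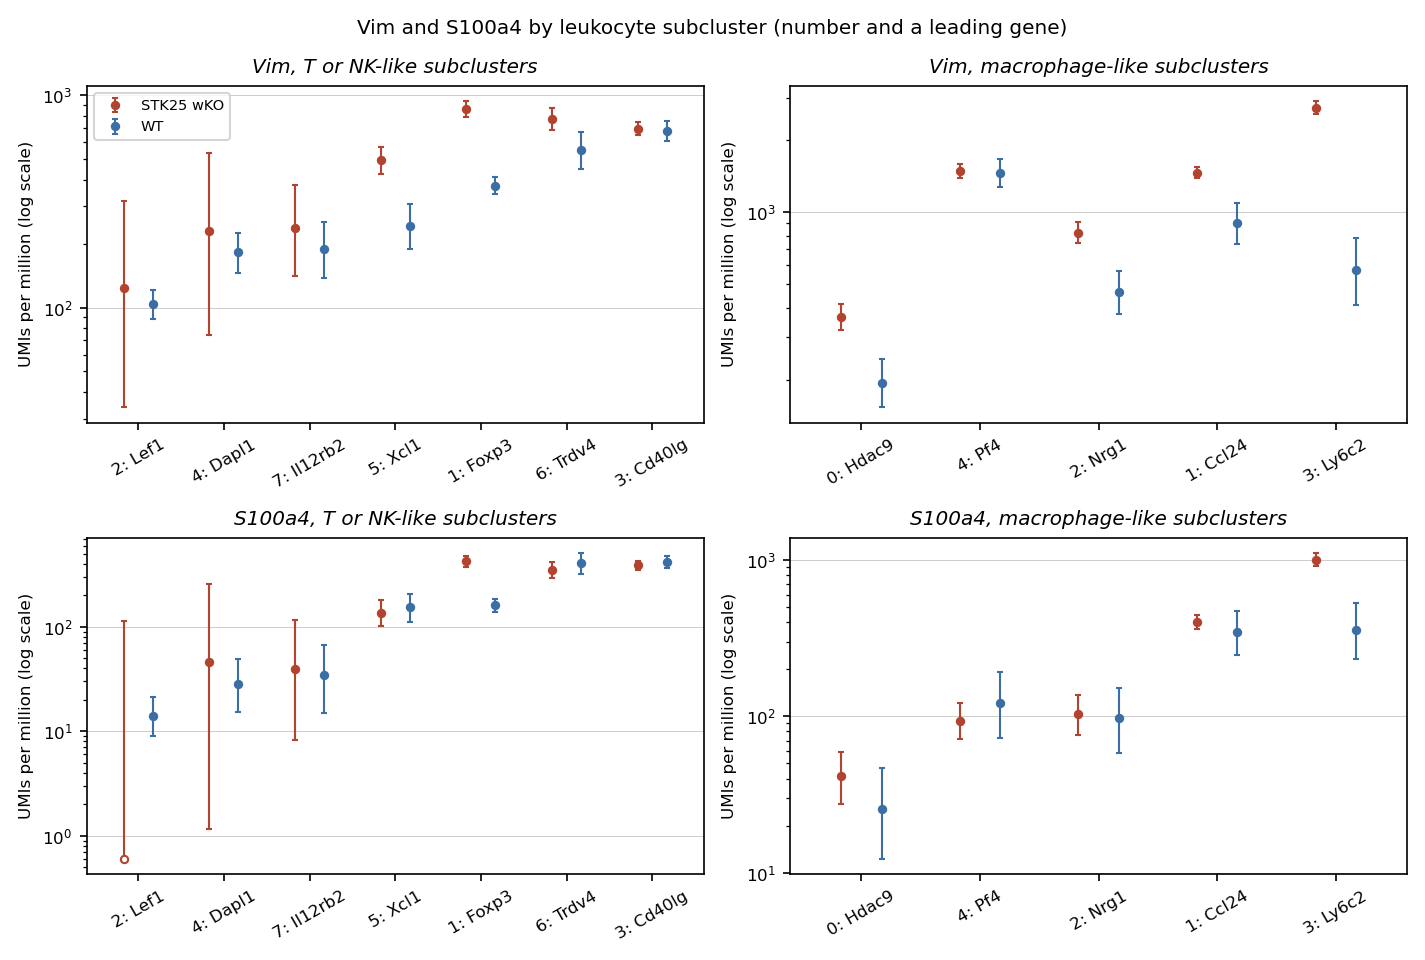
Vim and S100a4 (CPM, log scale) in subclusters of T- or NK-like and macrophage-like cells, STK25 wKO left of WT, with 95% Poisson intervals and an open symbol where no UMI was counted. Both genes were low in resting T cells and in the macrophage subcluster led by Hdac9 and Vcam1, and in the Ly6c2 monocyte subcluster S100a4 was 1006 and 359 CPM.

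In macrophages S100a4 was higher in monocyte-like cells than in the cells rich in complement C1q, which are typical of resident tissue macrophages. The C1q cells led by Hdac9 and Vcam1 had 41.4 CPM in the library labelled STK25 wKO and 25.6 CPM in that labelled WT. Those led by Pf4 and Trem2 had 94.0 and 122 CPM. The monocyte-like subcluster led by Ifitm6 and Ly6c2 had 1006 CPM (909 to 1110) over 104 cells and 359 CPM (232 to 530) over 34 cells. A subcluster led by Ccl24, Arg1 and MHC class II genes, without a state name, had 402 and 346 CPM. In the library labelled WT this level lay within the interval of the Ly6c2 subcluster. The monocyte or inflammatory state also took in subclusters led by Nrg1 (182 and 65 cells) and by Cxcl3 (71 and 3 cells), whose own levels are not given. Over the whole state S100a4 was 499 and 191 CPM, below the Ly6c2 subcluster, against 66.2 and 52.0 CPM over all C1q cells. The log2 difference of these states was 2.91 (2.59 to 3.25) in the library labelled STK25 wKO and 1.87 (1.19 to 2.59) in that labelled WT.

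Vim did not divide macrophages in the same way. Pf4 and Trem2 C1q cells carried as much as 1491 CPM in the library labelled STK25 wKO and 1466 CPM in that labelled WT, whereas Hdac9 and Vcam1 C1q cells carried 367 and 194 CPM. The Ly6c2 subcluster had 2742 CPM (2581 to 2911) and 574 CPM (410 to 782). Monocyte or inflammatory cells were higher than C1q cells by 1.10 (0.99 to 1.20) in the library labelled STK25 wKO, and differed by −0.11 (−0.41 to 0.19) in that labelled WT. The Ly6c2 cells were the leukocyte subcluster in which the libraries stood furthest apart in Vim among those named here, and they rested on 40 UMIs in the library labelled WT.

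In fibroblasts the level of S100a4 depended on the subcluster and on the library. Mucosal cells led by Cxcl13 and Tcf21 had 208 CPM (176 to 245) in the library labelled STK25 wKO and 377 CPM (326 to 434) in that labelled WT. Adventitial cells led by Pi16 had 357 and 285 CPM, and those led by Hs3st5 and Myoc had 167 CPM and 21.0 CPM, the last from 3 UMIs. The largest subcluster, of 221 and 186 cells, had 73.4 and 223 CPM, and its leading genes, such as Agr2 and Vil1, were epithelial. Of the 8 subclusters with at least 10 cells in each library, 4 were higher in the library labelled STK25 wKO. The lower S100a4 of the whole class was thus not shared by all its subclusters, and among pericyte-like cells the level was 225 CPM in the library labelled STK25 wKO, with 1 UMI in 29 cells in that labelled WT.

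**Figure D3:**
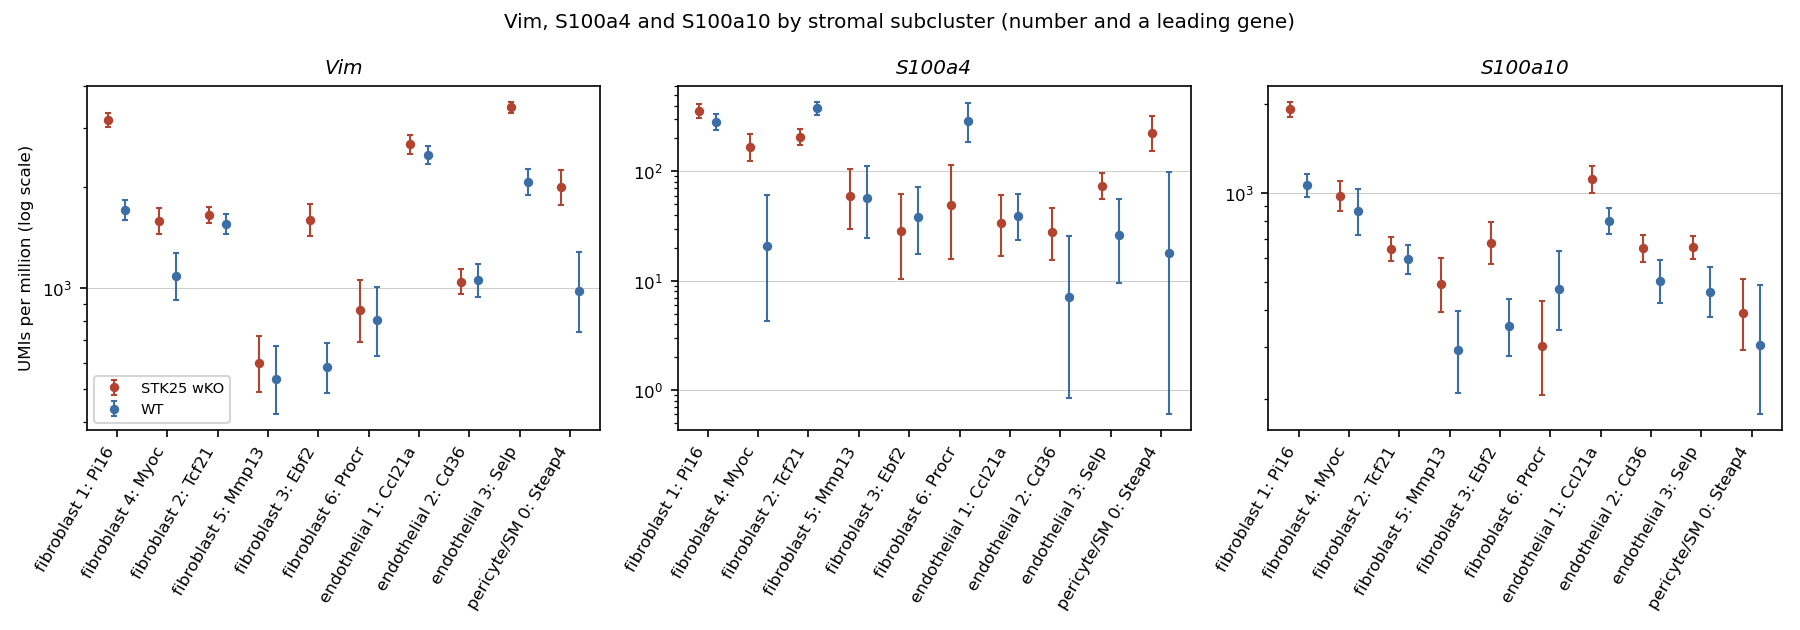
Vim, S100a4 and S100a10 (CPM, log scale) in the main stromal subclusters of at least 20 cells per library not led by epithelial genes, STK25 wKO left of WT, with 95% Poisson intervals. Vim in the Pi16 fibroblasts was 3185 and 1711 CPM, and S100a4 in the Tcf21 fibroblasts was 208 and 377 CPM.

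Epithelial-like cells had 225 CPM (221 to 230) of Vim in the library labelled STK25 wKO and 286 CPM (279 to 293) in that labelled WT. Because this class held most UMIs of both libraries, it still carried 30.9% and 42.4% of all Vim UMIs. These came mainly from a single stem-like subcluster of 496 and 220 cells, led by Pnliprp2, Mt3 and Wif1, where Vim reached 989 CPM (968 to 1011) and 1308 CPM (1274 to 1343). The other stem-like subcluster, led by Mdga2 and Cdh13, had 149 and 163 CPM. Inflammatory epithelial cells had 32.6 and 30.5 CPM, colonocyte-like cells 50.9 and 19.3 CPM and goblet-like cells 43.5 and 44.1 CPM. Vim was therefore high in a single epithelial state and low in differentiated cells.

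The Vim-rich subcluster was epithelial by its markers. Epcam, the epithelial adhesion molecule, stood at 2298 CPM in the library labelled STK25 wKO and 1777 CPM in that labelled WT, where endothelial-like cells had 496 and 380 CPM and fibroblast-like cells 524 and 303 CPM. The medians were 14089.5 and 14227.5 UMIs per cell. Wif1 and Notum, secreted inhibitors of Wnt that Wnt signalling itself induces, were found in 86.9% and 82.1% of cells of the library labelled STK25 wKO and in 80.9% and 72.7% of those labelled WT. Among the 367 and 149 cells with a UMI of Epcam and none of Ptprc, Col1a2, Dcn, Pecam1 or Rgs5, which mark leukocytes and stroma, Vim was 994 and 1280 CPM. Without the cells of highest doublet scores it was 1022 and 1309 CPM.

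Within this subcluster Vim was uneven. A UMI was found in 76.0% of cells in the library labelled STK25 wKO and in 60.9% in that labelled WT, and the median cell had 3 and 2 UMIs, but the cell at the 90th percentile had 46 and 70.6. Cells with 10 or more UMIs made up 33.9% and 32.7%. S100a4 was low, at 8.35 and 8.41 CPM, so the 2 mesenchymal markers were not both high in these cells. Fn1, the gene of the matrix protein fibronectin, stood at 227 and 131 CPM in them. It was named after its value was seen, and other mesenchymal genes read in these cells are not given. It is therefore no gauge of a mesenchymal state.

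The direction of the epithelial difference in Vim depended on how cells were weighted. The log2 ratio of the library labelled STK25 wKO to that labelled WT was −0.34 (−0.39 to −0.30) over summed UMIs. When each cell counted the same it was 0.41, and after thinning each cell to 1000 UMIs it was 0.46. Of 15 subclusters with at least 10 cells in each library, 11 were higher in the library labelled STK25 wKO, with the Pnliprp2 subcluster and the Mdga2 subcluster among the 4 that were not. One of the 11, led by the leukocyte genes Dock2 and Ptprc, held 74 and 417 cells with 287 and 78.5 CPM of Vim. A further subcluster of the 15, without a state name, held 758 and 35 cells at a median of 1501 UMIs. Lyz2, Apoe, Tyrobp, C1qb and S100a9 were among its leading genes. The part of these subclusters in the change of sign was not tested.

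S100a14, a member found mainly in epithelia, and S100a16, its neighbour in the genome, were epithelial genes here. The epithelial-like class carried 91.3% and 88.7% of all S100a14 UMIs, against 68.7% of all UMIs in the library labelled STK25 wKO. S100a14 stood at 652 CPM (645 to 659) in the library labelled STK25 wKO and 523 CPM (514 to 533) in that labelled WT. A UMI was found in 57.9% and 46.2% of epithelial-like cells, at medians of 4232.5 and 3817 UMIs per cell. B-like cells, which should lack it, had one in 22.6% and 13.3%, at medians of 1219 and 947 UMIs. After thinning to 1000 UMIs per cell, which left out 224 and 250 shallower epithelial-like cells, the shares in that class were 27.5% and 21.7%. Among B-like cells, where 217 and 894 were left out, 75 of 441 and 84 of 709 thinned cells had a UMI.

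In other classes S100a14 stood close to the summed epithelial markers. In T- or NK-like cells it stood at 0.44 and 0.42 of its level in unnamed cells, and the summed epithelial markers at 0.43 and 0.39. In B-like cells the values were 0.59 and 0.57 beside 0.55 and 0.53. S100a16 differed in the stroma. It was 325 CPM in endothelial-like cells of the library labelled STK25 wKO and 238 CPM in those labelled WT, 0.73 and 0.77 of its level in unnamed cells, where the epithelial markers were at 0.31 and 0.27. Fibroblast-like cells, at 342 and 218 CPM, also stood above that gauge, at 0.77 and 0.71 beside 0.35 and 0.25. S100a16 transcripts in these stromal classes were thus above the share that epithelial RNA took there, and those of S100a14 stood near it, at 0.29 and 0.22 in endothelial-like cells and 0.29 and 0.27 in fibroblast-like cells.

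S100a6 (calcyclin, bound by Cacybp), S100a10 and S100a11 (a partner of Anxa1) were also highest or near highest in epithelium, but were found in all 9 of these classes. S100a6 had 8157 and 6251 CPM in epithelial-like cells, and its lowest levels among these classes, in macrophage-like cells, were still 2275 and 1301 CPM. It had a UMI in 97.3% and 91.2% of B-like cells, at 0.61 of its level in unnamed cells in both libraries, where epithelial markers stood at 0.55 and 0.53. Levels of S100a6 in classes near this share could not be told apart from free RNA. S100a10 had 1471 and 1358 CPM in epithelial-like cells and 1003 and 541 CPM in T- or NK-like cells.

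These genes shared a peak among the larger epithelial subclusters. In inflammatory epithelial-like cells led by Ly6m, Ly6d and Saa1 (439 and 216 cells), S100a6 reached 19136 CPM in the library labelled STK25 wKO and 14310 CPM in that labelled WT. S100a11 stood at 4667 and 3429 CPM, S100a10 at 4044 and 3950 CPM, S100a14 at 1781 and 1411 CPM and S100a16 at 1964 and 1454 CPM. Vim was 43.4 and 41.7 CPM in the same cells. Of all inflammatory over all stem-like cells, the log2 differences were 1.98 and 2.56 for S100a14, 2.50 and 2.73 for S100a16, 2.21 and 2.84 for S100a10, and −4.59 and −4.91 for Vim. S100a6 was 11661 and 9396 CPM over all inflammatory cells and 6200 and 4576 CPM over all stem-like cells. S100a11 was 3153 and 2489 CPM beside 1614 and 1127 CPM. Over whole states, Vim was thus higher in stem-like cells and these S100 genes in inflammatory cells in both libraries. This did not hold for every gene in every subcluster named inflammatory.

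Tuft-like cells led by St18 and Dclk1 had 1493 and 1546 CPM of S100a6, and goblet-like cells 3693 and 2457 CPM. Squamous-like cells led by Psca and Sprr2d were nearly all from the library labelled WT (8 and 49 cells), where S100a10 was 6747 CPM, S100a11 was 7192 CPM, both above the Ly6m cells, and S100a4 was 179 CPM (125 to 249), the highest S100a4 of any epithelial subcluster. The Reg3b and Sult1a1 subcluster (204 and 39 cells), also named inflammatory, went against the general direction between the libraries. It had 2378 and 3720 CPM of S100a6, 706 and 1113 CPM of S100a10 and 117 and 214 CPM of S100a14. Its S100a6 lay below the 6200 and 4576 CPM of all stem-like cells, and its S100a10 above their 526 and 353 CPM. Its S100a14 lay below theirs in the library labelled STK25 wKO (282 CPM) and above it in that labelled WT (170 CPM). Over 16 epithelial subclusters, Pearson's r of S100a14 with S100a16 was 0.92 and 0.94, and of S100a14 with S100a6 was 0.92 in both libraries. With Vim, S100a16 had −0.32 and −0.45. These points share their libraries and depth and are not independent.

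**Figure D4:**
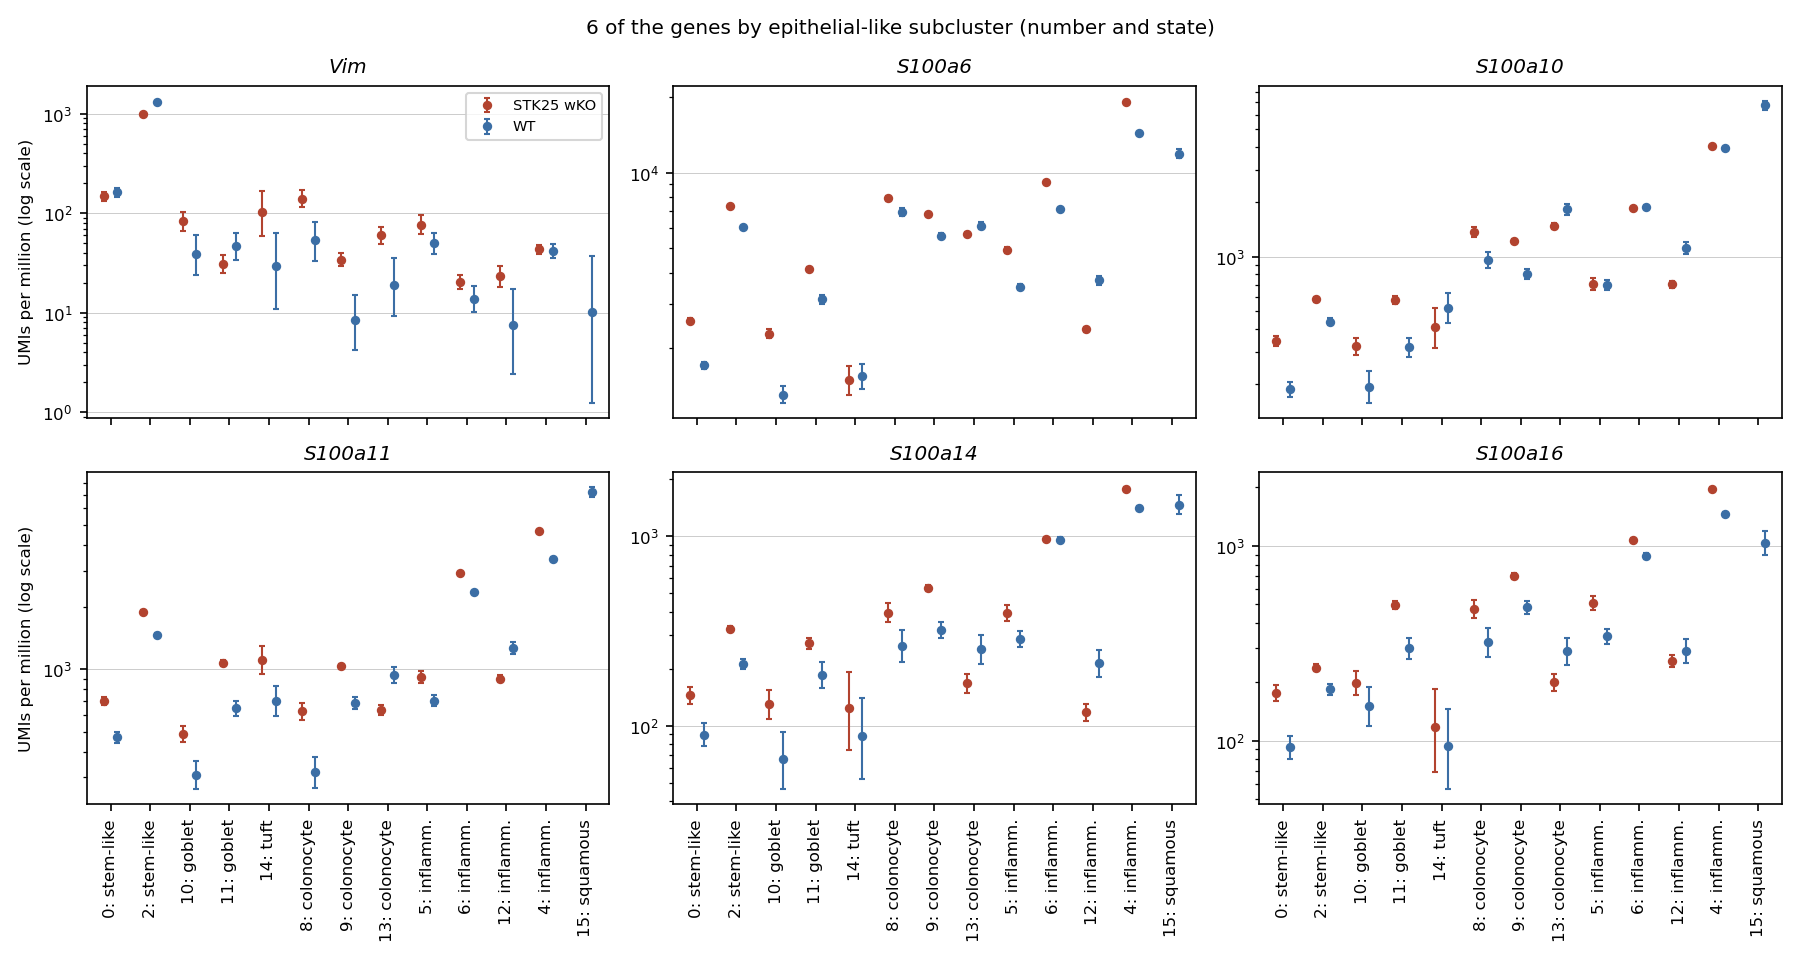
Levels of 6 of the genes (CPM, log scale) in epithelial subclusters with a state name (squamous in WT alone, enteroendocrine not drawn), STK25 wKO left of WT, with 95% Poisson intervals. Vim peaked in the Pnliprp2 stem-like cells at 989 and 1308 CPM, and S100a6 in the Ly6m inflammatory cells at 19136 and 14310 CPM.

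Neutrophil-like cells were rich in S100a11 and S100a6, beside S100a8 and S100a9, the calprotectin genes. S100a11 was 4398 CPM in the library labelled STK25 wKO and 1778 CPM in that labelled WT, and S100a6 was 7766 and 3439 CPM. The class was made of 2 clusters in unlike proportions. The cluster led by S100a9 and Retnlg held 738 and 20 cells, with 5916 and 4884 CPM of S100a11 and 9656 and 5274 CPM of S100a6. The cluster led by Hdc and Acod1 held 874 and 218 cells, with 1785 and 1277 CPM and 4513 and 3143 CPM. Within these clusters the log2 ratio of S100a11 was 0.28 and 0.48, against 1.31 over the class.

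S100a13, linked to the secretion of proteins without a signal peptide, was highest in fibroblast-like cells in both libraries. Fibroblast-like cells had 258 and 199 CPM, endothelial-like cells 216 and 176 CPM, T- or NK-like cells 208 and 99.2 CPM and epithelial-like cells 102 and 76.6 CPM. Unlike Vim, it was lower in lymphatic than in blood endothelial-like cells, by −0.98 and −0.75 on the log2 scale. It begins 42 bases from S100a1, which runs on the other strand, and the sources used here do not say whether the counting used strand.

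Between the libraries, most members stood higher in that labelled STK25 wKO. The set was chosen by a rule that used how its genes varied between the libraries. The shares of all genes printed beside the members here and below therefore give scale and test nothing. Over all cells, 8 of 8 had a log2 ratio above 0, where 38.8% of all genes tested did, and none passed 1 (1.82% of genes) or −1 (3.19%). Here and below, ratios of all genes were computed with 1 CPM added, unlike the printed ratios of members. The shares past 1 or −1 are lowered by this where genes have few UMIs. Of 72 ratios (8 genes in 9 classes), 67 were above 0. How many of all genes tested have an interval that leaves out 0 was not counted, so the next counts have no background. The interval of the ratio left out 0 in 60, of which 58 were above 0. The 2 below were Vim in epithelial-like cells (−0.34) and S100a4 in fibroblast-like cells (−0.30, interval −0.49 to −0.11), where gating by markers gave −0.089 with an interval of −0.30 to 0.12. The median of all genes tested lay between −0.15 and 0.02 in these classes, below most of the members' ratios.

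Members past a log2 ratio of 1 were found in leukocytes. In T- or NK-like cells they were S100a4 at 1.58 (1.43 to 1.73), Vim at 1.38 (1.29 to 1.48) and S100a13 at 1.07, where 3.11% of all genes tested passed 1 and 4.67% passed −1. All 8 members were above 0 there, as were 50.1% of genes. In macrophage-like cells Vim at 1.27, S100a4 at 1.15 and S100a11 at 1.05 passed 1 (3.21% of genes, with 5.28% past −1), and 8 of 8 were above 0 (43% of genes). With cells gated by markers in place of clusters, S100a4 was 0.31 there, with an interval of −0.021 to 0.65 that included 0. In neutrophil-like cells S100a11 at 1.31 and S100a6 at 1.18 passed (7.73%, with 9.67% past −1), and 6 of 8 were above 0 (42.1%). In dendritic-like cells S100a16 at 1.41 passed (2.72%, with 10.5% past −1), and 7 of 8 were above 0 (44.7%), while Vim did not differ by more than its interval (−0.14 to 0.13). S100a16 was lowest of the 9 classes there, at 86.7 and 32.6 CPM (73 and 28 UMIs). Unnamed cells, the gauge of free RNA, had 446 and 307 CPM.

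In the other classes no member passed 1, and none passed −1 in any of the 9. In epithelial-like cells 7 of 8 were above 0, against 37.5% of genes, with 1.11% of genes past 1 and 1.24% past −1. In fibroblast-like cells 7 of 8 were above 0 (51.9%, with 2.25% past 1 and 1.12% past −1). All 8 were above 0 in endothelial-like cells (50% of genes, with 2.33% past 1 and 2.04% past −1) and in B-like cells (49.4%, with 2.37% and 2.62%). The same held in pericyte- or smooth muscle-like cells (47%, with 4.46% and 4.59%).

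The makeup of the classes differed between the libraries beside these ratios. When the subclusters were given the WT makeup in both libraries, the ratio in T- or NK-like cells was 0.44 for S100a4 and 0.61 for Vim, and S100a4 was higher in the library labelled STK25 wKO in 5 of 11 subclusters. These weighted values have no interval and rest partly on few cells. Subclusters with 1347, 961 and 238 cells labelled WT held 29, 19 and 12 labelled STK25 wKO. In macrophage-like cells the ratios were 0.58 for S100a4 and 0.74 for Vim. In fibroblast-like cells S100a4 stayed at −0.30. Free RNA also differed between the libraries. The keratins Krt8 and Krt19 had ratios of 0.51 and 0.62 in T- or NK-like cells, which do not build keratin filaments, close to 0.71 for S100a6, 0.65 for S100a14 and 0.60 for S100a16 there. The part of free RNA in the members' ratios was not tested.

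**Figure D5:**
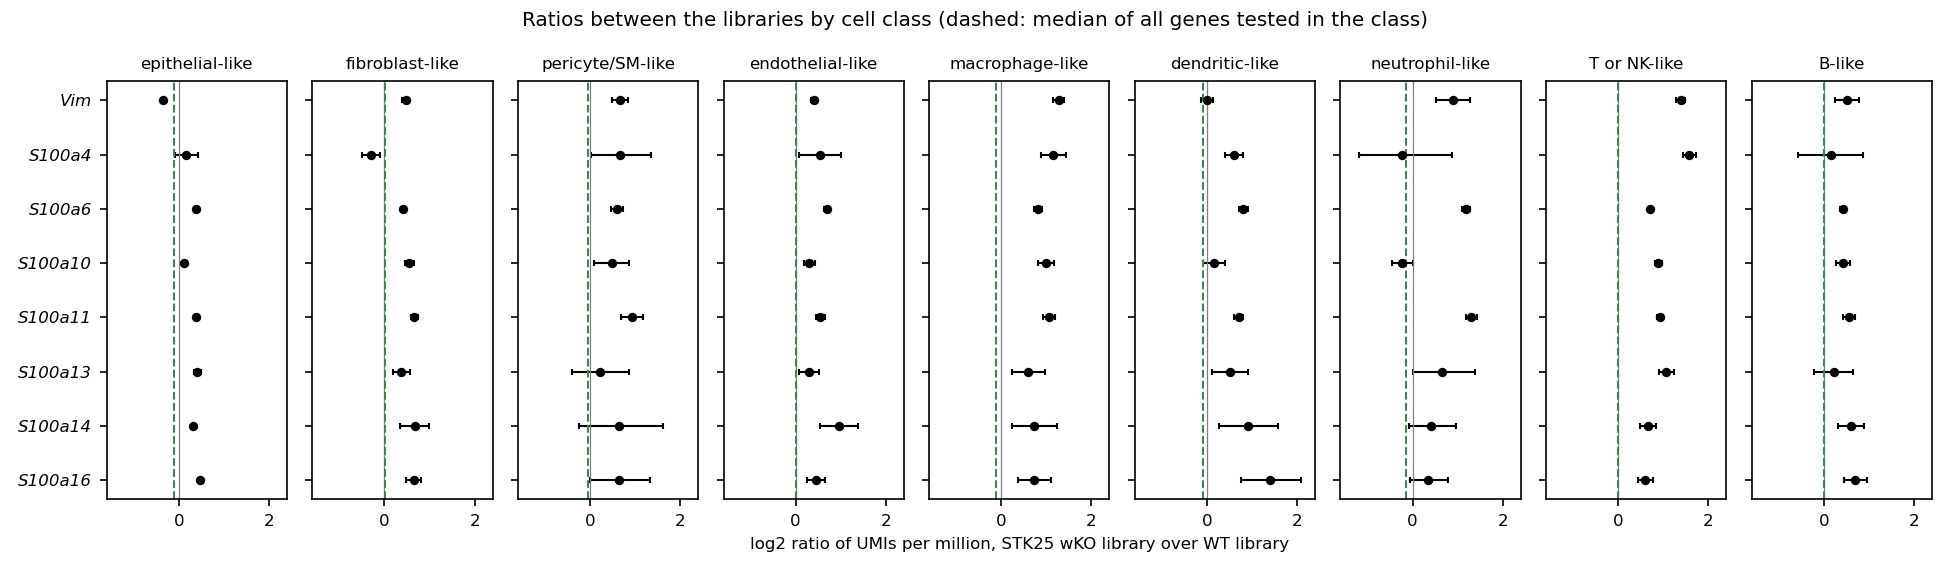
Log2 ratio of STK25 wKO to WT of each gene by cell class, with bars for the 95% interval of counting error and a dashed line at the median of all genes tested in that class. S100a4 in T- or NK-like cells (1.58) and Vim in T- or NK-like cells (1.38) lie furthest right among Vim and S100a4, and Vim in epithelial-like cells (−0.34) and S100a4 in fibroblast-like cells (−0.30) lie left of 0.

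A list of 35 other S100 genes, annexins, binding partners and intermediate filament genes was set beside the members. Over all cells 31 had enough UMIs, and 2 passed a log2 ratio of 1 upwards, where 1.82% of all genes did. These were S100a8 (2030 CPM in the library labelled STK25 wKO and 70.4 CPM in that labelled WT) and S100a9 (3206 and 92.5 CPM), and none passed −1. The median of the list was 0.17, against −0.11 for all genes tested. In T- or NK-like cells the medians were 0.43 and 0.00, and in fibroblast-like cells 0.42 and 0.02. S100a1, the remaining S100 gene of the named set, stood at 207 and 123 CPM over all cells.

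Anxa2, the partner of S100a10, was at 1793 and 1595 CPM in epithelial-like cells, 1131 and 706 CPM in fibroblast-like cells and 893 and 382 CPM in neutrophil-like cells. Anxa1, the partner of S100a11, was at 664 and 204 CPM in neutrophil-like cells, a log2 ratio of 1.70 (1.35 to 2.09). Anxa4, a further membrane-binding annexin, had 260 and 258 CPM in epithelial-like cells. Ahnak, a giant scaffold protein bound by S100a10 and Anxa2, had 724 and 893 CPM in epithelial-like cells, 908 and 1248 CPM in endothelial-like cells and 493 and 379 CPM in T- or NK-like cells, so that its direction differed between classes. Myh9, the myosin heavy chain that S100A4 binds, had 510 and 648 CPM in T- or NK-like cells, a log2 ratio of −0.35 (−0.43 to −0.26), where S100a4 was at 1.58. Cacybp had 114 and 103 CPM in epithelial-like cells. Over whole classes, the ratios of partners therefore did not all share the direction of the member's ratio. The makeup of the T- or NK-like class differed between the libraries, and S100a4 there was 0.44 when weighted to the WT makeup. No weighted value was computed for partners, so their direction within the same cells was not tested. Among the keratins, Krt8 had 3431 and 2978 CPM in epithelial-like cells, Krt18 had 967 and 854 CPM and Krt19 had 2916 and 2308 CPM.

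Genes with the most similar profile were found by Pearson's r over the 9 classes among 7317 genes. S100a14 was closest to the epithelial genes Epcam, Rab25 and Atp1b1 (r of 0.995, 0.995 and 0.995). Vim was closest to Klhl5, Itpripl2 and Eva1b (0.98, 0.98 and 0.97), and S100a4 to Trerf1, Rgs10 and Ust (0.99, 0.91 and 0.90). S100a16 was closest to Cdc42ep5, Glo1 and C77080 (0.97, 0.97 and 0.96), S100a6 to Nr1h4, Ptprd and Ceacam10 (0.94, 0.93 and 0.93), and S100a10 to Kif21a, Fopnl and Bag1 (0.94, 0.93 and 0.92). S100a11 was closest to Atp6v1g1, D8Ertd738e and Sem1 (0.94, 0.94 and 0.93), and S100a13 to Slc43a3, Itm2a and Reck (0.90, 0.89 and 0.89). Among the members, Vim was most like S100a13 (0.77) and S100a4 (0.60), and least like S100a14 (−0.73). The classes share libraries and depth, so these values describe the profiles and were not tested.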

How the data were processed

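The deposited values are UMI counts, not normalized, of 32285 genes in the barcodes of 2 libraries of pooled tumours. The authors made them with Cell Ranger 7.1.0 (file header) from droplet libraries read at the 3′ end and, per the labels, on mm10. The chemistry version was not settled by the labels, and Seurat is listed without a role. The libraries held 14168 barcodes (66297749 UMIs, median 2065) for STK25 wKO and 12542 (38737373 UMIs, median 1386.5) for WT.

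The cell filter asked for 200 or more genes and no more than 25% of UMIs from mitochondrial genes. Both libraries were clustered together without batch correction (2000 variable genes without the 8 members, 30 principal components, 20 neighbours, Leiden resolution 1, and 0.8 for subclusters). For a class or state name, 3 or more markers, and at least 50% of the marker set, had to pass. A marker passed if it was seen in 10% or more of the cells and exceeded the median of the clusters by at least 5 percentage points. These thresholds were set after the data were seen. Clusters led by markers of another class, or with few UMIs and no marker of their own among the 10 leading genes, stayed unnamed. The main values include possible doublets. Scrublet's own threshold marked 0% of cells, so as an alternative the highest scores were removed at 0.8% per 1000 cells (1542 and 1204 cells).

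UMIs were summed per gene, class or subcluster and library and given per 1000000 (CPM) with exact Poisson intervals. Shares of cells have Clopper-Pearson intervals, and log2 ratios (STK25 wKO over WT) have conditional binomial intervals without a pseudocount, or 1 CPM added for list medians. Genes with at least 50 UMIs in a class were set against a log2 ratio of 1 and are called the genes tested. No p-value was computed. The scripts were tested on simulated counts.

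The members and the list of 35 genes were chosen with earlier results of these data known. Named beside the members are the 3 genes with the most UMIs in each group of the list, the 3 genes most correlated with each member, and cluster-leading genes. Notum and Fn1, and the markers used for gating, were named after their values were seen. Alternatives changed the cell filter, doublets, resolution, clustering genes, summing, depth, total and gating. A further 3 were added after seeing the data, namely subclusters weighted to the WT makeup, doublets removed with clusters kept, and shared barcodes left out. Python 3.11.15, scanpy 1.11.5, leidenalg 0.10.2, igraph 0.11.9, scikit-learn 1.9.0, numpy 2.4.6, scipy 1.17.1, pandas 2.3.3 and matplotlib 3.10.9 were used. Gene positions are from the GRCm38 annotation and promoters from RefSeq (GRCm38.p6).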

Additional observations from a re-analysis of the deposited data

Results flagged for a closer look

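Over summed UMIs, Vim had log2 ratios of STK25 wKO to WT of opposite sign in 2 classes. It was −0.34 in epithelial-like cells and 1.38 in T- or NK-like cells, but the epithelial value turned to 0.41 with each cell given the same weight and to 0.46 after thinning. S100a4 was −0.30 in fibroblast-like cells and 1.58 in T- or NK-like cells. With cells gated by markers the fibroblast value was −0.089, with an interval of −0.30 to 0.12, and with subclusters weighted to the WT makeup the T- or NK-like value was 0.44. That weighted value has no interval and rests partly on subclusters with few cells labelled STK25 wKO. Each library is 1 sample of its group, and the difference between the classes was not tested.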

How the results depend on the processing

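Of the 60 ratios of members whose interval left out 0, 58 kept their sign under each of the 13 alternatives that gave a value. Of the single ratios under the alternatives, 750 moved by less than their interval, 148 by more, and 3 whose interval had left out 0 changed sign. With each cell given the same weight, the epithelial ratio of Vim (−0.34) turned to 0.41, that of S100a6 (0.38) was 0.47, S100a4 was 1.76 in T- or NK-like cells and −0.59 in fibroblast-like cells, and S100a4 in endothelial-like cells (0.53) turned to −0.20. After thinning to 1000 UMIs, Vim was 0.46 in epithelial-like and 1.498 in T- or NK-like cells, S100a6 was 0.47 in epithelial-like cells, S100a4 was 1.76 in T- or NK-like cells, and the epithelial median of the 35-gene list was 0.31 in place of 0.13. The S100a4 difference of adventitial over mucosal fibroblast-like cells labelled WT (−0.47) was 0.028 with equal weights and 0.23 after thinning. With cells gated by markers, Vim was −0.14 in epithelial-like, 0.79 in macrophage-like and 0.65 in fibroblast-like cells, S100a4 was 0.31 in macrophage-like and −0.089 in fibroblast-like cells, both with intervals that included 0, S100a4 was 1.66 in endothelial-like cells, and S100a6 was 0.40 in epithelial-like cells. With subclusters weighted to the WT makeup, Vim was −0.23 in epithelial-like, 0.61 in T- or NK-like and 0.74 in macrophage-like cells, S100a4 was 0.44 in T- or NK-like and 0.58 in macrophage-like cells and 0.027 in endothelial-like cells, and S100a6 was 0.37 in epithelial-like cells. S100a6 in epithelial-like cells was further 0.36 under the stricter cell filter, 0.35 without the highest doublet scores (with clusters made anew or kept) and 0.42 with the reduced total. The causes of these shifts were not tested. Clusters made without the highest doublet scores gave no pericyte- or smooth muscle-like class. Subclusters and their states were made anew under each other clustering. At Leiden resolution 2, 14 of 20 differences between states moved by more than their interval. The S100a4 difference of adventitial over mucosal fibroblast-like cells labelled WT was −0.93 (−1.25 to −0.61) there. Levels of single subclusters were not followed under other clusterings. No paired analysis was possible because each group has 1 library, which also left no replicate to leave out. Levels under about 10 UMIs, such as S100a4 in resting T-like cells of the library labelled STK25 wKO, have wide intervals.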
